A study of Mus musculus with 3 samples.

Results

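ATRX peaks were examined in the genes of the mouse genome that code for no protein. A peak was included where its summit, the position of highest signal, lay on chromosomes 1 to 19 in a non-coding gene of the GRCm38.p6 annotation, and neither in a protein-coding gene nor within 1 kb of one. This gave 9964 of 112153 control peaks (8.88%) and 9549 of 105674 MICAL1-FL peaks (9.04%). The peaks were described by the kind of gene they lay in: long non-coding RNA (lncRNA), pseudogene, small RNA, and a remaining group made up mostly of immune receptor loci.

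The peaks came from chromatin immunoprecipitation followed by sequencing (ChIP-seq) with an antibody against ATRX in mouse primary neurons. The neurons were prepared from C57BL6/J mouse embryos of E15.5 to E17.5, infected by a lentivirus at day 5 of culture, and carry a day 14 label. The control library is labelled mcherry, the name of a red fluorescent protein, and the other library MICAL1-FL; MICAL1 is an enzyme that oxidises actin. The labels give neither the promoter that drives the virus, nor the brain region, nor how many embryos were pooled. Each of the 2 conditions had 1 ChIP library, so no difference between them has a replicate check and no p-value is given for one. An input sample of control neurons named in the labels was not analysed here. In the MICAL1-FL file the peaks are named TBC_M2, in the control file CTL; the sample titles were followed, and the name MICAL1-FL rests on them alone. Peaks of a chromatin protein do not measure which genes are expressed, so the labelled cell type could not be checked against markers.

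ATRX is a chromatin remodelling protein of the SWI/SNF family that works with the histone chaperone DAXX to place a variant histone H3 in heterochromatin, telomeres and other repeated DNA, and it is known to bind G-rich sequence. Mutations of the human gene cause an intellectual disability syndrome. lncRNA genes are transcribed but carry no long reading frame; some regulate the genes beside them, and others are hosts of microRNAs (miRNAs) or small nucleolar RNAs (snoRNAs). Pseudogenes are copies of genes that have lost their coding function, and their likeness to the parent gene makes short reads hard to place. Ribosomal RNA genes occur in tandem arrays of near-identical copies, with the same difficulty.

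The sequences shown here are lncRNA start windows, because the number of CpG in them went with the presence of a peak in both libraries. Windows of 300 bases, from 250 before to 50 after an annotated start, were available for 5786 lncRNA genes (7065 windows outside the coding zone), and 16 windows of 15 genes were overlapped by a peak in both lists. These took in 13 of the 221 control peaks (5.88%) and 13 of the 192 MICAL1-FL peaks (6.77%) at start windows. Here both lists had to touch the same window. Over all peaks, 6.85% and 7.23% overlapped a peak of the other list anywhere, which is a different measure. A gene can have several annotated starts, and the window used need not lie at its outermost 5′ end. Shown are the 4 of these 16 with the most CpG, and Gm33474, which holds no CpG, for contrast. They were read from RefSeq (GRCm38.p6) on the strand of the gene, 5′ to 3′, and capitals mark each CG.
2410018L13Rik (chr12:23010194-23010493, minus strand): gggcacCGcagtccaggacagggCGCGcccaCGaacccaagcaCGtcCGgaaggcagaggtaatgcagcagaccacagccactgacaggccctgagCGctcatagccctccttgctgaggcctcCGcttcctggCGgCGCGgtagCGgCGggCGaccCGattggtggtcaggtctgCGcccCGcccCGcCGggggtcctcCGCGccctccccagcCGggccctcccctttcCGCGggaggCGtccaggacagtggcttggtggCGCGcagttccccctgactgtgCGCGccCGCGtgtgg
Gm30684 (chr7:38061311-38061610, minus strand): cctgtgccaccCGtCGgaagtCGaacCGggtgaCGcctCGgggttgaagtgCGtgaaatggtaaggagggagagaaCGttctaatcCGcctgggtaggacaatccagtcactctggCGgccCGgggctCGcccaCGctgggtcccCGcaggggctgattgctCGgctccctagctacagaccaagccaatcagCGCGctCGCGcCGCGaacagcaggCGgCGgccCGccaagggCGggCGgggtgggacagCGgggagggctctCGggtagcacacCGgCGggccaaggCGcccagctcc
Tunar (chr12:105336743-105337042, plus strand): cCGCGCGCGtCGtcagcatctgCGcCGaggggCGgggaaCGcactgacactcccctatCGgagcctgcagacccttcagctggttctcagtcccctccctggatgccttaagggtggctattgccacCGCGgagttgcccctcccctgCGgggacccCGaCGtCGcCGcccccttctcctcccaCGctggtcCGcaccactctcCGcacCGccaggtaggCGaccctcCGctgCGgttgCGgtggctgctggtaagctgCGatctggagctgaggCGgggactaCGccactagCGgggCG
Mir9-3hg (chr7:79515185-79515484, plus strand): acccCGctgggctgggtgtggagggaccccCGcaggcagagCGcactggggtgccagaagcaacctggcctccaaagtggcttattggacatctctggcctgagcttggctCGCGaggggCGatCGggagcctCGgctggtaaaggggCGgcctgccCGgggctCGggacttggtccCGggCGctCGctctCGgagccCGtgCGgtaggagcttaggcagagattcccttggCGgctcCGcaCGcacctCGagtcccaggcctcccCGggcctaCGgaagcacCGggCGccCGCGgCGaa
Gm33474 (chr5:107048347-107048646, plus strand): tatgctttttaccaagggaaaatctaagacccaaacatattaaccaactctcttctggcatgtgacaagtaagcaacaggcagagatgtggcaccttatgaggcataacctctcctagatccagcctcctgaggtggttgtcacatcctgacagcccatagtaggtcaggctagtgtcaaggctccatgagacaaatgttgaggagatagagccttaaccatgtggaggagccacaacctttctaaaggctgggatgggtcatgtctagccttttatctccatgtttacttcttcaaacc
The 2410018L13Rik and Gm30684 windows each hold 31 CpG, the Tunar window 30 and the Mir9-3hg window 28, while the median over all windows was 3. The 2410018L13Rik window lies at the outermost annotated 5′ end of its gene. Those of Tunar and Gm30684 lie 399 and 953 bp inside the gene, and that of Mir9-3hg is an internal start 15.4 kb inside it. Tunar is a lncRNA known for its part in neural differentiation of stem cells, and Mir9-3hg is the host gene of a copy of the brain miRNA miR-9.

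Short hairpins of miRNAs were reached by few peaks. Of 275 hairpins of the RefSeq sequence table outside the coding zone, 9 were overlapped in the control list, 2 in the MICAL1-FL list and 0 in both. Over all peaks of chromosomes 1 to 19 only 6.85% and 7.23% overlapped the other list, so nothing is read from the 0. The number to be reached in such short sequence was not computed. Among those that belong to miRNAs known from brain were Mir181a-1 and Mir181b-1, which share 1 control peak (chr1:137966444-137966753), and Mir9-1, under a control peak at chr3:88215269-88215644. Their mature sequences from RefSeq are shown because they name the loci described next, with the seed (bases 2 to 8) in capitals.
miR-181a-5p: aACAUUCAacgcugucggugagu
miR-181b-5p: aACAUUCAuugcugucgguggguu
miR-9-5p: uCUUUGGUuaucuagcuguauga
The miR-181a and miR-181b sequences share 1 seed, and the seed of miR-9 differs from it. The peak at the Mir181 hairpins was 6 fragments deep and that at Mir9-1 was 5 deep, near the typical depth of a peak in the lists. The other hairpins under a control peak were Mir129-2 with Mir129b on the opposite strand, Gm25641 opposite Mir9-1, Mir6390, Mir365-1 and Mir7216. Mir1897, inside the lncRNA gene Sox2ot, and Mir6378 lay under MICAL1-FL peaks. Mir145b, which is not among these 275, also held a MICAL1-FL summit.

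Non-coding genes held slightly more peaks than their share of length, and the kinds of gene differed in density. They cover 8.35% of the length searched and held 9.04% (95% counting interval 8.87% to 9.21%) of the control peaks and 9.15% (8.98% to 9.33%) of the MICAL1-FL peaks on chromosomes 1 to 19. lncRNA genes held most of them, with 8772 control and 8565 MICAL1-FL peaks. Their density was 52.6 control peaks per Mb (51.5 to 53.7) and 51.3 MICAL1-FL peaks per Mb (50.2 to 52.4). Pseudogenes held 946 and 785 peaks, at 40.1 (37.6 to 42.7) and 33.3 (31.0 to 35.7) per Mb. Small RNA genes, which span only 0.221 Mb, held 8 and 17 peaks, at 36.1 (15.6 to 71.2) and 76.8 (44.7 to 123) per Mb. The remaining genes held 238 and 182 peaks, at 24.4 and 18.6 per Mb, the lowest densities of the 4 groups. Protein-coding genes with their 1 kb margins had 48.6 and 45.2 peaks per Mb, and sequence outside genes 42.9 and 41.2. In both lists lncRNA genes lay above both of these, with intervals that do not meet. Pseudogenes lay below both, but in the control list their interval meets that of sequence outside genes (42.5 to 43.2). Intervals throughout are exact 95% intervals and cover counting error only; how well reads map in each kind of gene was not measured.

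**Figure D1:**
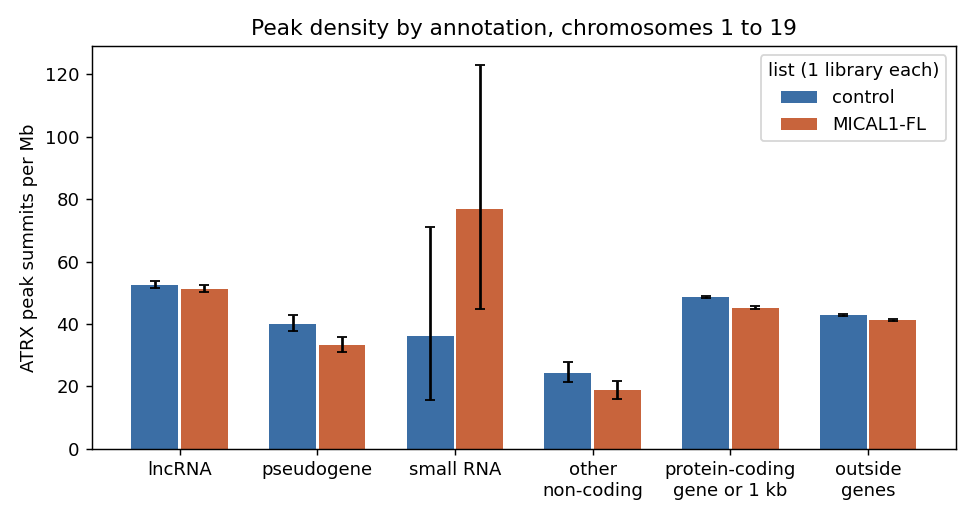
Peak summits per Mb (vertical axis) by the kind of annotated sequence (horizontal axis) in the control and the MICAL1-FL list, 1 library each; bars start at 0 and whiskers are exact 95% Poisson intervals. lncRNA genes stand at 52.6 and 51.3 per Mb and pseudogenes at 40.1 and 33.3, and the small RNA whiskers are wide because they rest on 8 and 17 peaks.

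The 1 kb margin sets which peaks near protein-coding genes were included. In non-coding genes, the stretch 0 to 1 kb from a protein-coding gene, just outside the rule, held 236 control and 232 MICAL1-FL summits (74.4 and 73.2 per Mb). The stretch 1 to 2 kb away, just inside it, held 166 and 177 (51.8 and 55.2 per Mb), close to the density of lncRNA genes as a whole.

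Most of the peaks were shallow. Depth, the number of ChIP fragments piled up at the summit, and background were recovered from the fold and p of each peak, which are the authors' own values. The median depth was 5 fragments in both lists, and 83.8% of the control and 86.0% of the MICAL1-FL peaks were at most 6 deep. The median width was 335 and 334 bp. A false discovery q of 1 was given to 95.9% and 97.1% of them, and a q of 0.05 or less to 27 and 29. A background above the lowest in the list (1.62 fragments in both) was found at 38.0% of the control and 32.3% of the MICAL1-FL peaks. In pseudogenes these shares were 39.5% and 28.7%.

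Few of the peaks recurred in the other library. At least 1 bp of overlap with a peak of the other list was found for 652 control peaks (6.54%, 6.07% to 7.05%) and 656 MICAL1-FL peaks (6.87%, 6.37% to 7.40%). Over all peaks of chromosomes 1 to 19 the shares were 6.85% and 7.23%, so non-coding genes lay at the level of the lists as a whole. The shares were 6.51% and 6.69% in lncRNA genes and 7.08% and 8.54% in pseudogenes, against 8.28% and 8.88% in protein-coding genes with margins and 5.53% and 5.76% outside genes. Sharing went with depth. Of peaks 4 to 6 fragments deep, 5.87% of control and 6.05% of MICAL1-FL peaks overlapped the other list, and of those 7 to 11 deep, 9.22% and 11.0%. Among peaks at least 12 deep, 15 of 25 control (60.0%, 38.7% to 78.9%) and 16 of 39 MICAL1-FL peaks (41.0%, 25.6% to 57.9%) did. Given this, presence in only 1 of the lists is no measure of a difference at a gene.

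The strongest peaks lay in a few genes with high background. In the lncRNA gene Gm33838 a peak at chr9:35305262-35305576 was 11405 fragments deep in the control, over a background of 3680, and the MICAL1-FL peak at chr9:35305259-35305579 was 11452 deep over 3229. Both summits lay at the same base, 35305437. The lncRNA gene Gm36876 had a control peak 136 deep over a background of 46.7 and a MICAL1-FL peak 119 deep over 33.0. Gm40034, a short lncRNA gene, had peaks 148 deep over 83.7 and 137 deep over 45.3. At these 3 genes the peaks of the 2 lists overlapped, and depth and background were both far above those of a typical peak. Gm52861 had a control peak 58 deep over 23.2 and a MICAL1-FL peak 36 deep over 27.3, the latter with a fold of only 1.31.

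On chromosome 17 a broad peak covered an annotated copy of ribosomal RNA sequence. The control peak, chr17:39843120-39848665, had its summit in the lncRNA gene AY036118, a depth of 131 and a background of 74.9. The MICAL1-FL peak, chr17:39842997-39848842, had its summit in Rn18s-rs5, an 18S ribosomal RNA pseudogene, a depth of 123 and a background of 23.7. Depth was thus similar, while the background differed between the lists, and the authors' fold was 1.74 for the control peak and 5.02 for the other. Folds were therefore not compared between the lists as a change. Pisd-ps1 and Pisd-ps2, transcribed pseudogenes of the gene for a phospholipid-making decarboxylase, were also among the strongest, and both were peak-bearing in both lists. Pisd-ps2 had overlapping peaks 20 deep over 4.62 in the control and 10 deep over 3.10 in the MICAL1-FL list. Pisd-ps1 had a MICAL1-FL peak 32 deep over 6.14.

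Other strong peaks had no partner in the other list. The lncRNA genes Gm31323 and Gm26630 had control peaks 14 and 12 deep over backgrounds of 1.85 and 1.62 (folds 5.26 and 4.96) that met no MICAL1-FL peak. In the MICAL1-FL list Gm46595, a lncRNA gene, had a peak 45 deep over 7.29, and the pseudogenes Gm46063 and Gm10807 had peaks 29 deep over 5.94 and 32 deep over 8.31, without an overlapping control peak. Gm46063 had a control peak 28 deep elsewhere in its 2.44 kb. Of the 8 control and 13 MICAL1-FL peaks with a q of 0.001 or less, 6 and 10 had a background above 2 times the lowest, and 6 and 8 overlapped a peak of the other list.

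**Figure D2:**
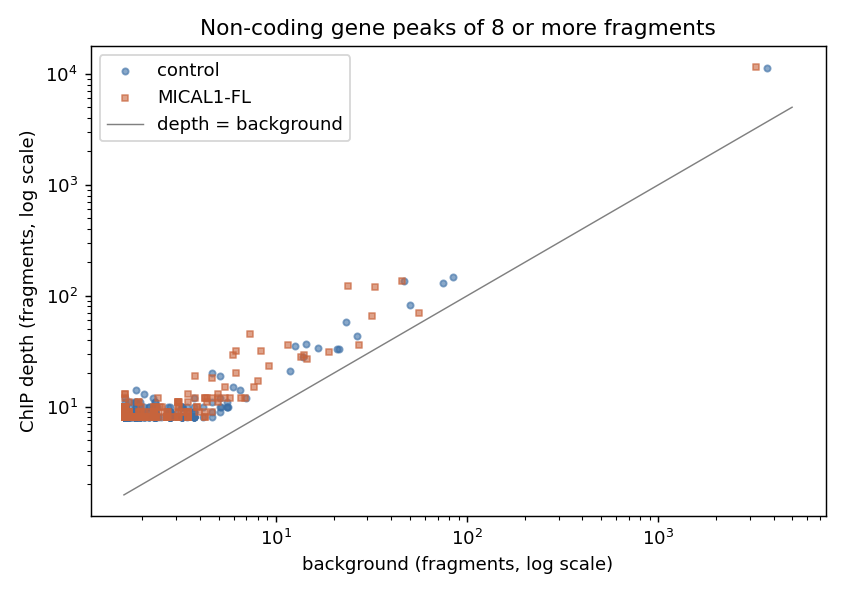
ChIP depth in fragments (vertical, log scale) against background in fragments (horizontal, log scale) for each peak in a non-coding gene with a depth of 8 or more, control as circles and MICAL1-FL as squares; the line marks equal depth and background. Most points crowd at a background near 1.62 and depths of 8 to 12, the deeper peaks lie to the right at higher backgrounds, and the pair at Gm33838 (11405 and 11452 deep) stands alone at the upper right.

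Peaks were more frequent just downstream of lncRNA starts. Around 7064 annotated lncRNA starts, the 500 bp downstream held 328 control summits (93.0 per Mb, 83.2 to 104) and 312 MICAL1-FL summits (88.4 per Mb, 78.9 to 98.8). Counts are per start. Bins of neighbouring starts were not merged, so 1 summit can count more than once, and the intervals do not allow for this. From 5 to 10 kb downstream the densities were 58.8 and 52.9 per Mb, which makes the start 1.58 and 1.67 times higher. The 500 bp upstream stood at 77.9 and 71.1 per Mb. At 20063 protein-coding starts the 500 bp downstream held 224 and 205 summits per Mb, 5.79 and 5.90 times the level from 5 to 10 kb downstream. A rise at lncRNA starts was thus present in both libraries, and as counted it was smaller than at protein-coding starts. The 2 sets differ: the coding zone was left out around lncRNA starts, and nothing was left out around protein-coding starts. Non-coding genes within 1 kb of a protein-coding gene, outside the rule, held 74.4 and 73.2 summits per Mb. The size of the 2 rises is therefore not a like-for-like comparison.

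**Figure D3:**
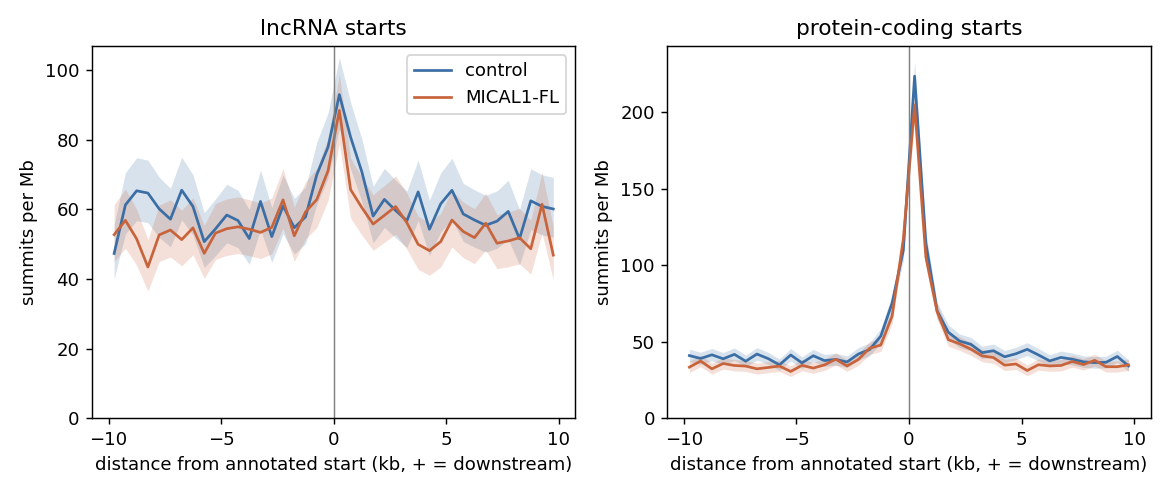
Peak summits per Mb (vertical) in bins of 500 bp by distance from the annotated start (horizontal, kb, positive downstream) for lncRNA genes on the left and protein-coding genes on the right, with the vertical scales differing; lines are the 2 lists and bands are exact 95% Poisson intervals. The lncRNA profile reaches 93.0 and 88.4 just downstream of the start and the protein-coding profile 224 and 205. A summit near several starts counts for each, which the bands do not allow for, and the coding zone is left out around lncRNA starts only.

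CpG-rich lncRNA starts carried peaks more often, in both lists. A control peak overlapped 255 of the 7065 windows and a MICAL1-FL peak 222. Among 4614 windows with 0 to 4 CpG, 2.84% had a control peak, 2.54% a MICAL1-FL peak and 0.0867% both. Among 118 windows with 20 or more CpG the shares were 18.6%, 16.1% and 5.93%. Windows with 5 to 12 and with 13 to 19 CpG lay between, at 4.23% and 5.83% for control and 3.57% and 4.85% for MICAL1-FL peaks. The 16 windows with a peak in both lists had a median of 16 CpG, and 9 of them held at least 13, which 4.59% of all windows did. Windows of 1 gene, or of genes that start on opposite strands, can share a peak, and the 16 windows rest on 13 peaks of each list.

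**Figure D4:**
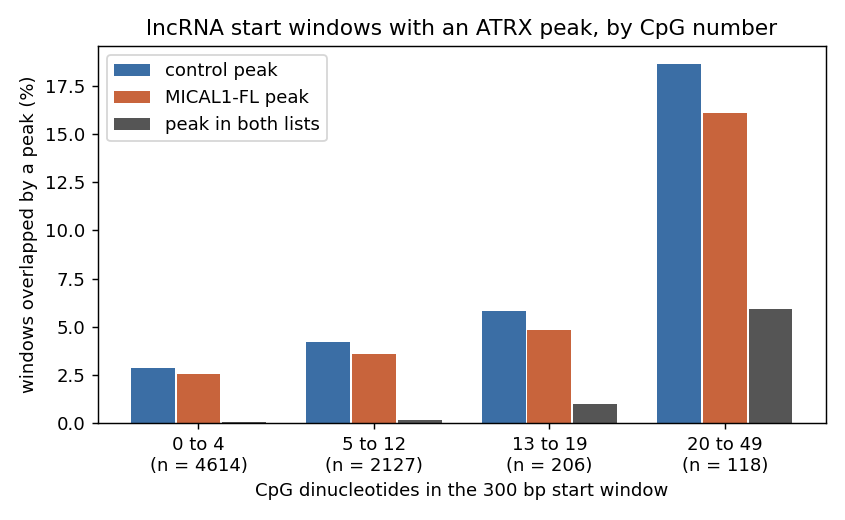
Percentage of lncRNA start windows of 300 bp overlapped by a control peak, a MICAL1-FL peak, or a peak in both lists (vertical, from 0) by the number of CpG in the window (horizontal, n windows in brackets). The control share goes from 2.84% with 0 to 4 CpG to 18.6% with 20 or more, the MICAL1-FL share from 2.54% to 16.1%.

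Motifs tied to ATRX in the literature were counted in the same windows, on both strands. The telomere repeat unit TTAGGG was present in 767 of the 7065 windows (10.9%), in 9.02% of those with a control peak, in 9.01% of those with a MICAL1-FL peak and in 0 of the 16 with both. A pattern that can fold into a G-quadruplex, 4 runs of GGG with loops of 1 to 7 bases, was present in 9.53% of all windows, in 16.5% with a control peak, in 11.3% with a MICAL1-FL peak and in 6 of the 16 with both (37.5%). These 6 are not separate loci: the windows of Gm30684 and Gm30771 share their peaks, and so do those of Zmiz1os1. The pattern overlaps with GC content, whose median was 47.0% over all windows and 62.7% in the 16. A match describes the letters in the window and no binding.

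The individual peaks at these starts were shallow too, at 4 to 8 fragments in the control and 5 to 9 in the MICAL1-FL list. Several lay above the median of 5 of all peaks in non-coding genes. The Tunar start had a control peak 5 deep (chr12:105336959-105337293) and a MICAL1-FL peak 8 deep (chr12:105336960-105337449), with summits 113 and 121 bp downstream of the start. The internal Mir9-3hg start had a control peak 8 deep at chr7:79515292-79515986 and a MICAL1-FL peak 6 deep at chr7:79514971-79515355, which overlap but have summits 11 bp downstream and at -326 bp, upstream of it. At the outer 5′ end of Mir9-3hg, chr7:79500017-79500508 was a control peak 6 deep with no MICAL1-FL partner. At 2410018L13Rik the peaks were 7 and 5 deep with summits 90 and 80 bp downstream. A pair of lncRNA genes that start near each other on opposite strands, Gm30684 and Gm30771, shared a control peak 7 deep and a MICAL1-FL peak 8 deep. The CpG-free Gm33474 start had peaks 6 and 5 deep. The other genes with both were 2700038G22Rik, Zmiz1os1, 4833412C05Rik, Gm34350, Gm35055, Gm15411, Gm36254, Gm42141 and Gm39613.

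Whether a lncRNA gene had a peak went with its length. Of 9417 lncRNA genes with sequence outside the coding zone, 3999 had a control peak, 3832 a MICAL1-FL peak and 2486 both, and 4072 (43.2%) had none. Of 1216 genes under 2 kb, 9.70% had a control and 9.13% a MICAL1-FL peak. Of 690 genes from 50 to 200 kb, 95.1% and 92.6% did. The peaks of these genes per Mb ran the other way, from 85.9 and 80.9 per Mb under 2 kb to 39.4 and 44.6 at 200 kb and over. Over 747 lncRNA genes of 50 kb or more the densities of the 2 lists had a Pearson r of 0.446 and a Spearman rho of 0.428, as a description across genes that share their sequence and its mapping.

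After the receptor loci Igk and Tcra, the genes with the most peaks were long lncRNA genes known mainly by clone or model names. 6530403H02Rik, of 432 kb, had 35 control and 32 MICAL1-FL peaks. A930011G23Rik, of similar length, had 34 and 30. Gm32647, of 1284 kb, had 36 and 27. These 3 genes were close in number between the lists. Pvt1, the lncRNA gene beside Myc, had 24 and 17 peaks in 222 kb (108 and 76.5 per Mb), and Lncpint, a p53-induced lncRNA, had 13 and 8. A330093E20Rik had 21 and 28 and D5Ertd615e 19 and 28. Each of these pairs had a counting interval of the ratio that includes 1. Also among the genes with the most peaks were 2610307P16Rik (24 and 40), 5730522E02Rik (15 and 40) and Gm34196 (16 and 31), described below. The intervals of 5730522E02Rik (1.44 to 5.20) and Gm34196 (1.03 to 3.79) leave out 1.

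The hosts of the 3 miR-9 copies were among the densest genes. miR-9 is a miRNA of neural progenitors and neurons. Of 2561 non-coding genes with at least 20 kb outside the coding zone, Mir9-3hg ranked at position 2 and Gm3764, the host of Mir9-1, at position 3 by peaks per Mb over both lists. Mir9-3hg contained 9 peaks in the control and 8 in the other list over 34.4 kb (262 and 233 per Mb), and Gm3764 held 6 and 5 in 23.3 kb (258 and 215 per Mb). C130071C03Rik, the host of Mir9-2, is 19.9 kb long and so outside that ranking, and held 7 and 5 peaks (351 and 251 per Mb). The median over genes of 20 kb or more was 43.0 control peaks and 42.0 MICAL1-FL peaks a Mb. The 3 hosts were singled out after their values were seen. Of their 22 control and 18 MICAL1-FL peaks, 6 in each list overlapped a peak of the other.

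Along each host the peaks were scattered and shallow. In Mir9-3hg the control peaks were 5 to 8 deep and the MICAL1-FL peaks 4 to 7 deep, and the pairs that overlapped lay at chr7:79502777-79503262 with chr7:79502927-79503177 and at the start described above. In Gm3764 the control peak at chr3:88209300-88209829 overlapped the MICAL1-FL peak at chr3:88209127-88209711, and a second pair met near chr3:88214797. In C130071C03Rik the control peak at chr13:83726798-83727517 overlapped the MICAL1-FL peak at chr13:83727281-83728611. The other genes among the densest 5 were Gm35253 (6 and 5 peaks, 293 and 244 per Mb), Gm1667 (6 and 4) and the transcribed pseudogene Gm14267 (7 and 5).

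Peak numbers in non-coding genes were slightly lower in the MICAL1-FL list, as they were in the lists as a whole. The ratio of MICAL1-FL to control was 0.958 (0.932 to 0.986) in non-coding genes against 0.947 over all peaks of chromosomes 1 to 19 and 0.931 in protein-coding genes with margins. It was 0.976 (0.948 to 1.006) in lncRNA genes, 0.830 (0.754 to 0.913) in pseudogenes and 0.765 (0.627 to 0.931) in the remaining genes. The pseudogene interval leaves out the ratio of all peaks, but with a p of 0.01 or less (0.859, 0.765 to 0.965) it includes 0.947. The lncRNA interval leaves out that ratio by little. It includes 0.947 with a p of 0.01 or less (0.936 to 1.006) or with 5 kb kept from protein-coding genes (0.945 to 1.005). The same holds without the 10 genes with the most peaks (0.940 to 0.999). With peaks of at least 6 fragments alone, the ratios were 0.868 (0.828 to 0.910) for lncRNA genes and 0.720 (0.622 to 0.833) for pseudogenes. These are not to be set against 0.947, which is for peaks of any depth. Protein-coding genes had ratios of 0.814 to 0.879 at that depth, by length class. The libraries differ in how much of the list is shallow, and depth of sequencing and amount of ATRX cannot be told apart here. By chromosome, the ratio over non-coding genes ran from 0.819 on chromosome 17 to 1.13 on chromosome 16, below 1 on 12 and above 1 on 7.

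Longer lncRNA genes had higher ratios. The ratio was 0.913 (0.845 to 0.986) in genes under 10 kb, 0.933 (0.892 to 0.976) from 10 to 50 kb, 1.01 (0.960 to 1.06) from 50 to 200 kb and 1.13 (1.02 to 1.25) in 57 genes of 200 kb or more, which held 750 control and 849 MICAL1-FL peaks. Protein-coding genes in the same length classes had ratios of 0.887, 0.894, 0.907 and 0.963, in the same order and lower. With peaks of at least 6 fragments, the lncRNA ratios were 0.799, 0.824, 0.894 and 1.05. The interval of the longest class (0.891 to 1.23) then includes 1, and also 0.947, the ratio for peaks of any depth. The protein-coding ratios were 0.814, 0.861, 0.827 and 0.879, in another order and above those of lncRNA genes in the 2 shorter classes.

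Single genes with 10 or more peaks over both lists were then compared. Of 344 such non-coding genes, 41 (11.9%) had at least 2 times as many MICAL1-FL as control peaks, where 7.54% of all 2600 genes with 10 or more peaks did. In the other direction 34 (9.88%) had at least 2 times as many control peaks, where 11.3% of all genes did. The median ratio was 1 in the non-coding and 0.923 in the protein-coding genes. A counting interval that leaves out 0.947, the ratio of all peaks, was found for 10 non-coding genes (2.91%), against 3.50% of all genes, so such genes were no more frequent than over the lists. All 10 lay above that ratio and 0 below, while protein-coding genes had 45 above and 36 below. Among genes with at least 20 peaks, 7 of 86 non-coding genes were at least 2 times higher in the MICAL1-FL list and 1 at least 2 times lower (8.14% and 1.16%), where 3.89% and 6.06% of all 1156 such genes were.

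**Figure D5:**
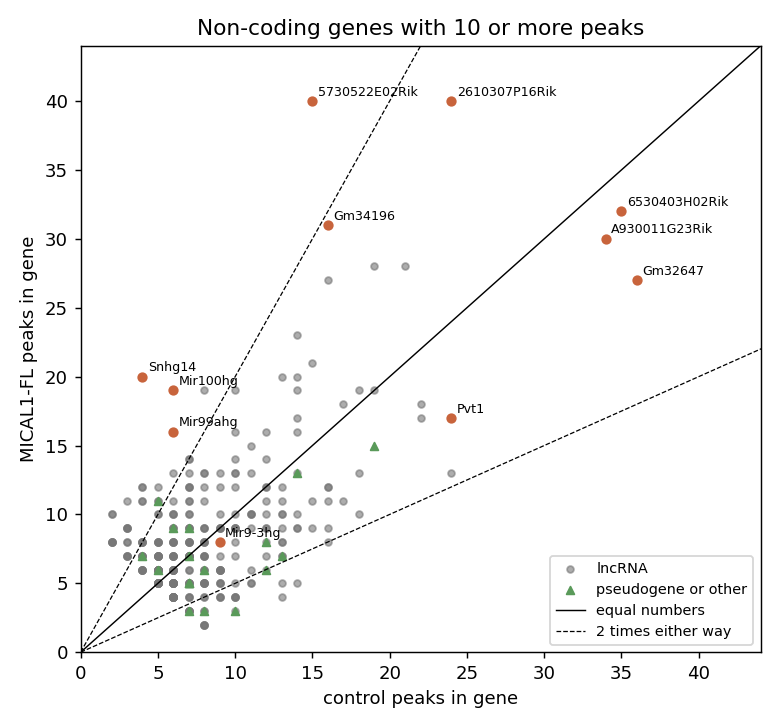
MICAL1-FL peaks (vertical) against control peaks (horizontal) for each non-coding gene with 10 or more peaks over both lists, lncRNA genes as circles and other kinds as triangles, with lines for equal numbers and for 2 times either way; Igk and Tcra lie beyond the axes and are not drawn. 5730522E02Rik (15 and 40), Snhg14 (4 and 20) and Mir100hg (6 and 19) lie above the upper line, and 6530403H02Rik (35 and 32) lies near equality.

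The 10 genes include hosts of small RNAs. Snhg14, the imprinted transcript that hosts snoRNA clusters and runs antisense to Ube3a, had 4 control and 20 MICAL1-FL peaks (ratio 5, 1.67 to 20.1), while the flanking sequence had 62 and 58. Mir100hg, host of a miRNA cluster with a let-7 and a miR-125b copy, had 6 and 19 (3.17, 1.22 to 9.69), with 32 and 33 in its flanks. Mir99ahg, host of the related cluster on another chromosome, had 6 and 16 (2.67, 0.991 to 8.32), with 20 and 35 in its flanks. For Mir100hg and Snhg14 the flanks were near equal, while for Mir99ahg they too had more MICAL1-FL peaks. No peak of Snhg14 or Mir100hg overlapped a peak of the other list, which with 6.85% and 7.23% of all peaks overlapping is near what the lists show anywhere.

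The remaining 7 genes are known by clone or model names. 5730522E02Rik had 15 and 40 peaks (2.67, 1.44 to 5.20), against 50 and 33 in its flanks. 2610307P16Rik had 24 and 40 (1.67, 0.980 to 2.89) and Gm34196 had 16 and 31 (1.94, 1.03 to 3.79), with flanks of 60 and 58 and of 42 and 42. Gm31340 had 8 and 19 and Gm30821 had 3 and 11, and their flanks, with 12 and 25 and with 9 and 20, had more MICAL1-FL peaks too. 1700008C04Rik and Gm32469 each had 2 and 10, with flanks of 7 and 9 and of 8 and 9. The lowest ratios among genes with 10 or more peaks were those of 4930412E21Rik, 4930568G15Rik, Gm12724 and Gm33448 (each 8 control and 2 MICAL1-FL peaks, 0.25, 0.0259 to 1.25) and Gm46505 (10 and 3), with intervals that include 1.

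Imprinted non-coding genes, expressed from 1 parental copy, had 6 control and 31 MICAL1-FL peaks (ratio 5.17, 2.12 to 15.1), against 0.947 over all peaks. Of 6 genes of this list with sequence outside the coding zone, 4 had peaks, each with more in the MICAL1-FL list. These are not 4 separate loci, as Meg3 and Rian are neighbours, and all but Snhg14 rest on few peaks. Among all non-coding genes, 1745 had MICAL1-FL peaks alone, as Meg3 and Rian do, and 2010 had control peaks alone. Meg3, a maternally expressed lncRNA, had 0 and 2 peaks, Rian, the snoRNA host beside it, 0 and 4, Airn, the antisense transcript that silences Igf2r, 2 and 5, and Snhg14 4 and 20. H19 and Mirg had 0 in both lists, and Kcnq1ot1 and Peg13 lie wholly in the coding zone. Without Snhg14 the list had 2 and 11 peaks (5.5, 1.20 to 51.1). No peak of the list overlapped a peak of the other library, where 6.85% and 7.23% of all peaks do, and nothing is read from that. The counts depend on the coding zone. Over the whole genes, with parts in or near protein-coding genes included, the list had 16 and 39 peaks (2.44, 1.33 to 4.67), Snhg14 8 and 21 (2.63, 1.12 to 6.85), Airn 5 and 9, Kcnq1ot1 2 and 2, and Peg13 1 and 0. Without Snhg14 the whole genes had 8 and 18 (2.25, 0.931 to 5.98), an interval that includes 1.

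In Snhg14 the MICAL1-FL peaks were 4 to 31 deep. The deepest, at chr7:59768456-59768786, was 31 deep over a background of 18.8, and the next, at chr7:59771497-59771756, was 23 deep over 9.21. The 4 control peaks were all 5 deep, over backgrounds of 1.62 to 2.31. In all, 4 of the 20 MICAL1-FL peaks had a background above 2 times the lowest, and without them Snhg14 had 4 and 16 peaks (4.0, 1.29 to 16.4) and the imprinted list 6 and 27 (4.5, 1.82 to 13.3). The part of the background in these counts was not tested further.

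The other lists of non-coding genes, written by hand from their known roles, gave no ratio whose interval leaves out 1. Those with 0 control peaks have no finite ratio, among them structural and telomerase RNA genes, with 0 and 2 peaks in 1.692 kb. Neuronal and brain lncRNA genes had 87 control and 100 MICAL1-FL peaks in 22 genes (1.15, 0.854 to 1.55), with 8 genes higher and 11 lower in the MICAL1-FL list. Among them Sox2ot, which contains the Sox2 gene, had 7 and 13, Otx2os1 5 and 10, Tunar 6 and 1, Rmst 5 and 3, Miat 2 and 1, and the miR-124 host Mir124a-1hg 1 and 0. Nuclear and broadly expressed lncRNA genes had 34 and 29 (0.853, 0.501 to 1.44). In that list Malat1 and Neat1, which make abundant RNAs of nuclear speckles and paraspeckles, had 1 and 0 and 2 and 0, and Dleu2, a miRNA host, had 2 and 7. Hox and developmental lncRNA genes had 7 and 11 peaks (1.57, 0.556 to 4.78), among them Tbx3os1 with 3 and 4, Haglr with 1 and 2, and Wt1os with 2 and 1. Of 7 non-coding genes of other lineages outside the coding zone, 6 had none, and Fendrr, a lncRNA of mesoderm, had 0 and 3. These 7 genes have 33.951 kb outside the coding zone, of which Fendrr has 28.229 kb. Of 23 neuronal miRNA genes 0 held a summit in either list, but together they have only 1.856 kb outside the coding zone. Sequence this short cannot show an absence of ATRX, so nothing is read from the genes without a peak in these 2 lists.

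Pseudogenes rarely held a peak. Of 7455 pseudogenes, with a median of 935 bp outside the coding zone, 668 had a control peak, 566 a MICAL1-FL peak and 196 both, and 86.1% had none. Transcribed pseudogenes, of which 353 had sequence outside the coding zone, were reached more often: 81 had a control and 82 a MICAL1-FL peak, against 586 and 484 of 6925 other pseudogenes. The lengths of these kinds of pseudogene were not compared, and the part of length in this was not tested. The pseudogenes with the most peaks are long. Gm18728, of 429 kb, had 14 and 13 peaks, Gm13377 had 12 and 8, Gm12026 had 7 and 9, and Gm9597 had 5 and 11. The vomeronasal receptor pseudogene Vmn2r-ps11 had 12 and 6 (0.5, 0.154 to 1.44). None of these 5 had an interval that leaves out 1.

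Small RNA genes held the fewest peaks. Of 2120 genes, 8 were reached by the control list, 17 by the MICAL1-FL list and 0 by both. With so few genes reached, nothing is read from the 0. Counted by peak, 2 of the 8 control and 4 of the 17 MICAL1-FL peaks overlapped the other list, against 6.85% and 7.23% of all peaks. These were the 5S peaks described below and the peak in Terc. The ratio of MICAL1-FL to control peaks, 2.13 (0.869 to 5.69), has an interval that includes 1. With 0 bp kept from protein-coding genes the ratio was 2.5 (1.05 to 6.56), which does not include 1. By kind, control and MICAL1-FL peaks numbered 5 and 4 in snoRNA, 0 and 4 in snRNA, 1 and 3 in miRNA, 2 and 3 in ribosomal RNA and 0 and 1 in transfer RNA genes. The ribosomal RNA peaks lay in the 5S gene array of chromosome 8, with control summits in Rn5s and n-R5s143 and MICAL1-FL summits in n-R5s100, n-R5s120 and n-R5s141. They were 8 and 12 deep in the control and 12, 13 and 12 deep in the MICAL1-FL list, and all 5 overlapped a peak of the other list. Reads from near-identical 5S copies cannot be assigned to 1 copy, so which copy holds a summit is uncertain.

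Terc, the RNA template of telomerase, had 1 MICAL1-FL peak (chr3:96414383-96414699), 8 deep over a background of 1.62 with a fold of 3.44. A control peak at chr3:96414234-96414544, 5 deep, overlapped it, with its summit 184 bp outside the gene and 296 bp from the other summit. The locus thus carried a peak in both lists, and the summit rule placed only 1 of them in Terc. Rn7s2, a signal recognition particle RNA gene, had 1 MICAL1-FL peak, 8 deep over 2.69, and 0 control peaks.

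The remaining group was dominated by the antigen receptor loci, which are rearranged in lymphocytes and not in neurons. The immunoglobulin kappa locus Igk had 92 control and 64 MICAL1-FL peaks (29.0 and 20.2 per Mb, ratio 0.696, 0.498 to 0.968). The T cell receptor loci Tcra, Tcrb, Tcrg and Tcrd had 49 and 42, 19 and 15, 6 and 3, and 5 and 6 peaks. Igh, the immunoglobulin heavy chain locus, had only 3 and 4 peaks in 2742 kb (1.09 and 1.46 per Mb), far under the 29.0 and 20.2 of Igk. How well reads map in Igh was not measured.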

How the data were processed

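Per the labels, ATRX ChIP DNA and input DNA of mouse primary neurons were sequenced as read pairs. Tools named per the submitters' processing notes, without their roles, are MACS 1.4.2, Bowtie 1.3.0, ChIPseeker 1.26.2 and SAMtools 1.9. The deposited layout, with a q and a summit per peak, is that of later MACS versions, so which program made the fold, p and q is uncertain, and the depths recovered from them rest on the formula below. Neither threshold nor genome build is given in the sources used here. Scaffold names and the rise of peaks at gene starts were those of GRCm38, and that build was used. The authors deposited 1 peak list per ChIP sample. The deposited score of a peak equals the -log10 p times 10, cut to a whole number. The deposited fold is a ratio over background from the authors' peak caller, as are the -log10 p and -log10 q. No deposited p exceeded 0.0498 (control) or 0.0496 (MICAL1-FL). The summit is the deposited start plus the authors' summit offset.

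Genes and biotypes came from RefSeq GRCm38.p6, which was used without exons. A summit in genes of several classes was counted as small RNA, then pseudogene, then lncRNA, then other. For depth, fold was taken as (pileup + 1) / (background + 1) and p as a Poisson probability of a higher pileup; nearly all pileups came out whole, to within 0.05. This is an inference. Densities are summits per Mb outside protein-coding genes and their 1 kb margins. Shares have Clopper-Pearson, densities Poisson and ratios conditional binomial 95% intervals. The flanks of a gene are the stretches of 1 gene length on either side, with all peaks counted, coding genes included. Groups came from the sample titles.

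Genes were named by most peaks in each class, highest and lowest ratio among genes with at least 10 peaks, strongest peaks, highest density among genes of at least 20 kb, and most peaks in each hand-written list, with Terc, Malat1, Neat1, Meg3 and H19 in any case. The genes with an interval leaving out 0.947, those with start peaks in both lists and the miR-9 hosts were named after their values were seen. Members and lists were chosen with earlier results of these data known. Alternatives covered the distance from protein-coding genes, the authors' threshold, the overlap, the class order and the peak minimum. Python 3.11.15, numpy 2.4.6, pandas 2.3.3, scipy 1.17.1 and matplotlib 3.10.9 were used, and the functions were tested on simulated data.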

Additional observations from a re-analysis of the deposited data

How the results depend on the processing

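Of the values recomputed under alternatives, 45 stayed within their counting interval or within 1.5 times for counts, and 21 moved. With a q of 0.05 or less, 27 control and 29 MICAL1-FL peaks were left, and the share of all chromosome 1 to 19 peaks 6.99% and 9.42%. That share was 9.26% and 9.37% with 0 bp kept from protein-coding genes, 8.53% and 8.61% with 5 kb, and 9.29% and 9.37% with any overlap of the peak. The share overlapping the other list was 4.61% and 4.80% for summits within 250 bp, 2.74% and 2.92% for a reciprocal overlap of 50%, and 18.5% and 19.5% with a gap of up to 1 kb. With at least 6 fragments, the ratio of MICAL1-FL to control was 0.851 over non-coding genes, 0.868 for lncRNA and 0.720 for pseudogenes. With at least 20 peaks, 8 genes in place of 75 had a ratio of 2 or more either way. For the imprinted list, the alternatives added after seeing the data gave 5.5 without Snhg14, 4.5 without peaks of high background and 2.44 over whole genes. The causes of these shifts were not tested, beyond fewer peaks or genes entering. No paired analysis was possible because each condition had 1 library. Most peaks were 4 to 6 fragments deep, which limits statements on any single peak.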
